A study of Mus musculus with 294 samples.

Results

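A set of 8 genes of semaphorin signalling were followed in single neural crest cells of the embryonic mouse heart: the ligands Sema3a, Sema3c and Sema3d, the plexin receptors Plxna2, Plxna4 and Plxnd1, and the neuropilin co-receptors Nrp1 and Nrp2. They were taken by name as rows of the deposited raw count table, so they are 8 of its 15124 genes. The rule used no expression value, though earlier results of these data were known when it was written. All 8 were found.

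The series profiled single EYFP-positive cells of Wnt1-Cre; R26-EYFP embryos, sorted from tissue near the septum that divides the outflow tract and sequenced cell by cell on the Fluidigm C1 system. In these mice a Cre recombinase under Wnt1 regulatory sequence switches on EYFP in the neural crest and its descendants, so cells that never had Cre activity are not represented. Embryos were of 4 ages, E11.5 the earliest and E17.5 the latest, with E14.5 and E12.5 between them, but no label ties a cell to a stage, an animal or a chip. The cells therefore formed 1 group, counted as 1 sample with no replicates, and nothing was tested between groups.

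Class 3 semaphorins are secreted guidance cues. Most bind a neuropilin, which has a short intracellular tail, and the signal is carried into the cell by an A-type plexin or by PlexinD1. In the developing outflow tract, Sema3c, Plxna2, Plxnd1 and the neuropilins are known for their part in the movement of neural crest cells and in septation, and loss of several of them in mice leaves the outflow tract undivided.

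Counts are reads, since the labels name no molecular identifiers. They are given as CPM, a gene's reads for every 1000000 reads in that cell, and a gene was called detected in a cell at 10 CPM or more. Every cell's name opens with a digit from 1 to 7, and cells that share it are called a name series below (58, 48, 38, 38, 34, 34 and 44 cells). Its meaning is not given in the labels. Total counts ranged from 34046 to 3033857 reads per cell, with a median of 1204543 and series medians of 635879 to 1630832.5. Series 1 stood apart, with a median of 7718 genes per cell against 3123 to 4676.5 in the other series. In all 58 of its cells the 10th percentile of the levels of abundant genes was above 0, which was so in 14 cells of the other series, so shares with and without series 1 are given where they differ. Of the marker lists, all but 11 cells carried at least 3 mesenchymal markers. Glial markers were carried by 13 cells, cardiomyocyte markers by 5 and endothelial markers by 4, while no cell carried 3 neuronal or melanocyte markers. The 4 endothelial-marker cells were all of series 1, with a median total of 267059 reads against 1217181.5 in the other cells. At such totals a few reads reach 10 CPM. The epicardial list had 2 genes in the table, too few for this rule, and 9 cells had both.

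GATA6, a zinc finger factor of the outflow tract, is known to act on Sema3c and Plxna2, so the sequence before a RefSeq start of these genes is shown first, with that of Sema3a, another ligand. The 250 bases are given from RefSeq on GRCm38.p6, all on the plus strand, at chr1:194619579-194619828 for Plxna2, chr5:17574566-17574815 for Sema3c and chr5:13396534-13396783 for Sema3a. These starts differ from the first base of the gene in GENCODE M21, by 535 bases for Sema3c, 1611 bases for Plxna2 and 271370 bases for Sema3a, so all 3 windows lie inside the GENCODE span of their gene and other start sites are not shown. Capitals mark a GATA motif, searched as AGATAA and its variant AGATAG, or TGATAA and its variant TGATAG, on both strands.
Plxna2: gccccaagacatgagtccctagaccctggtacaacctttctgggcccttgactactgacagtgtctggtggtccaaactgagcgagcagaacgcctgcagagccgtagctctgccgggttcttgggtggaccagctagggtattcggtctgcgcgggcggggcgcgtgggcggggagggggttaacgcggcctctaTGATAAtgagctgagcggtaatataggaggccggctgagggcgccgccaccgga
Sema3c: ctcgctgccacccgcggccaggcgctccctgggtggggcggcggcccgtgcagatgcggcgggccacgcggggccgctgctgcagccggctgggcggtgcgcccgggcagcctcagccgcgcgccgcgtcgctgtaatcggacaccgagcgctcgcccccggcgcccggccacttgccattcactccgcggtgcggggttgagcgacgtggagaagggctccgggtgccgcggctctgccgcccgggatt
Sema3a: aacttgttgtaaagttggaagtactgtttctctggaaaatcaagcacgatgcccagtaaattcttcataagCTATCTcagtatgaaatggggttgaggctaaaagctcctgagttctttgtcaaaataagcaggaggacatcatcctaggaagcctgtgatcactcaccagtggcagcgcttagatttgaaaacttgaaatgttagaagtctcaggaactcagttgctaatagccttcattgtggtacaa

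The Plxna2 window held TGATAA, beginning at -54 from the start, and the Sema3a window held CTATCT, the reverse strand form of AGATAG, at -179. The windows of Sema3c, Sema3d, Plxnd1, Nrp1 and Nrp2 held none of these letters, and Plxna4 had no entry. One of these motifs was present in 26.5% of all 32851 promoter windows of this length, and in 7.94% of the 9178 windows with at least 60% G and C. The Plxna2 window has 62.8% G and C, the Sema3c window 78.4% and the Sema3a window 40.8%. A match of letters describes the sequence and does not show a binding site. In the cells, Gata6 reached 10 CPM in 86.7% of cells and was detected in 52 of the 56 cells with Plxna2, where the separate shares within name series give 49 cells. It was detected in 65 of the 74 cells with Sema3c, against 65.3 cells. Gata6 and Sema3a, whose window held a motif, shared 46 cells against 42.1. Gata6 and Sema3d, whose window held none, shared 68 against 64.1. Each number given by the shares lay inside the exact interval of the observed share. The median Spearman correlation with Gata6 over name series was -0.09 for Plxna2, 0.04 for Sema3c, 0.16 for Sema3a and 0.10 for Sema3d. Whether a motif goes with co-detection was not tested.

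The ligands lie on the same chromosome. On GRCm38 (GENCODE M21), Sema3d spans chr5:12383385-12588948, Sema3a chr5:13125414-13602565 and Sema3c chr5:17574281-17730268, all on the plus strand. No coding gene lies in the 0.536 Mb between Sema3d and Sema3a, and 19 lie between Sema3d and Sema3c, of which 12 were rows of the count table. Among these, Sema3e was detected in 0.340% of cells, Hgf in 2.38% and Cacna2d1, a calcium channel subunit, in 21.1%.

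Each ligand was found in a minority of cells, at high levels in a few. Sema3c, the ligand best known in outflow tract septation, was detected in 74 cells (25.2%, 95% interval 20.3% to 30.5%). Sema3d, known for guiding endothelial cells and neural crest, was also detected in 74 cells, with the same share and interval. Sema3a, the founding axon repellent of the class, was detected in 47 cells (16%, 12% to 20.7%). Intervals are exact Clopper-Pearson intervals of counting error only, and reads without identifiers are not independent molecules. For orientation, 41.7% of all genes in the table reached 10 CPM in at least 20% of cells, as 3 of the 8 genes here did (Sema3c, Sema3d and Nrp1).

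Among the cells with Sema3c the level ran from 10.1 to 3584.5 CPM with a median of 180.9 CPM. For Sema3d it ran from 11.2 to 3681.6 CPM with a median of 143.1 CPM, and for Sema3a from 10.8 to 999.9 CPM with a median of 135.6 CPM. The 29 cells with the highest values gave 86.9% of the summed CPM of Sema3c, 85.6% of that of Sema3d and 93.8% of that of Sema3a. Most cells thus had no or few reads of a given ligand, and its reads were concentrated in about 10% of the cells. Per kilobase of exon, which allows levels of different genes to be set side by side, mean levels were 15.9 CPM per kb for Sema3c, 10.2 for Sema3d and 2.55 for Sema3a.

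The receptors spread over a wider range. Nrp1, the co-receptor that also binds VEGF, was detected in 48.6% of cells (42.8% to 54.5%), from 10.3 to 2195.2 CPM with a median of 176.2 CPM. Its reads were less concentrated than those of the ligands and of the other receptors, with 57.7% of the summed CPM in its 29 highest cells. For the other receptors this was 86.7% (Plxna2), 97.6% (Plxna4), 98.2% (Plxnd1) and 100% (Nrp2). A gene with reads in few cells has a high value by this measure. Nrp2 had a read in only 27 cells, so its 100% was fixed. The mean of Nrp1 was 16 CPM per kb. Nrp2, the paralog of Nrp1, was detected in 13 cells (4.42%, 2.38% to 7.44%), from 13.5 to 648.6 CPM with a median of 59.9 CPM and a mean of 0.398 CPM per kb. The intervals of the 2 neuropilins did not overlap.

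The shares of the plexins lay between those of the 2 neuropilins. Plxna2 was detected in 56 cells (19%, 14.7% to 24%), with a median of 82.3 CPM and a maximum of 811.5 CPM. Plxna4, which is known from Sema3a signalling in neurons, was detected in 35 cells (11.9%, 8.43% to 16.2%), with a median of 76.9 CPM and a maximum of 1079.4 CPM. Plxnd1, known for its role in vessels and the outflow tract, was detected in 25 cells (8.50%, 5.58% to 12.3%), with a median of 28.5 CPM and a maximum of 434.6 CPM. Mean levels were 1.82, 1.48 and 0.891 CPM per kb in the order Plxna2, Plxna4 and Plxnd1. By share of cells, the order of all 8 genes was Nrp1, then Sema3c and Sema3d, Plxna2, Sema3a, Plxna4, Plxnd1 and Nrp2. Apart from Nrp1, whose interval stood clear of the rest, each gene's interval overlapped that of its neighbours in this order.

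**Figure D1:**
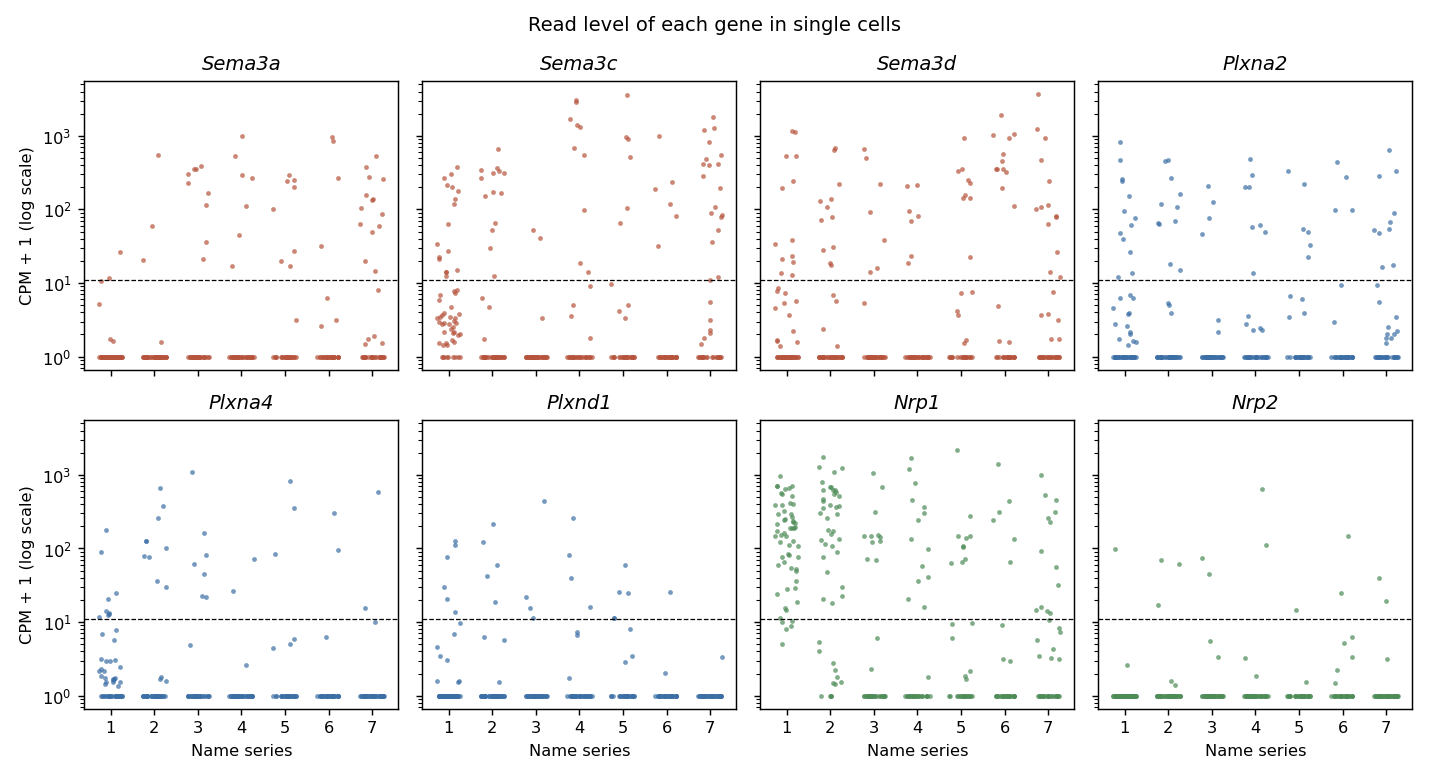
Level of each gene in every cell, as CPM + 1 on a log axis, by name series; each point is a cell, ligands are red, plexins blue and neuropilins green, and the dashed line is 10 CPM. Most cells of a series sit at 0 reads, except for Nrp1 in series 1 and 2, Sema3c in series 1 and 7 and Plxna4 in series 1. Many of the series 1 cells with Sema3c or Plxna4 reads lie below 10 CPM.

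Nrp1 differed most between name series. It was detected in 53 of 58 cells of series 1 (91.4%, 81% to 97.1%) and 36 of 48 of series 2 (75%, 60.4% to 86.4%). In series 3 to 7 it was detected in 28.9%, 36.8%, 29.4%, 17.6% and 29.5% of cells. The intervals of series 1 and 2 did not overlap those of series 3 to 7. At 100 CPM, far above the low reads of series 1, the shares were 62.1% and 60.4% in series 1 and 2 and 13.6% to 23.7% in the others, and with every cell thinned to 250000 reads (25 shallower cells left out) they were 92.5% and 74.4% against 17.6% to 34.3%. Without series 1, Nrp1 was detected in 38.1% of cells (31.9% to 44.7%).

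The gap between the highest and the lowest series was 73.7 percentage points for Nrp1, and 57.4 points among series 2 to 7. Of the 8853 genes (58.5% of the table) that 10% of cells or more expressed at 10 CPM, 6.63% differed by 50 points or more between series, and 1.52% did so among series 2 to 7. Series 1 had the highest share for 51.8% of these genes. Mean Nrp1 was 223.8 CPM in series 1 and 324.5 CPM in series 2, and 69.2 to 142.3 CPM in series 3 to 7. What the digit stands for is not given, so this difference cannot be told apart from any property that a series shares.

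Sema3a ran the other way. It was detected in 2 of 58 cells of series 1 (3.45%, 0.420% to 11.9%) and 3 of 48 of series 2 (6.25%, 1.31% to 17.2%). In series 3 to 7 it was detected in 23.7%, 18.4%, 23.5%, 11.8% and 31.8% of cells. The intervals of series 1 and 2 overlapped those of series 3 to 6, and only that of series 7 (18.6% to 47.6%) stood clear of both. Sema3c was detected in 5.26% of series 3 (0.644% to 17.7%) and 43.2% of series 7 (28.3% to 59%), and in 17.6% to 29.3% of the rest. Its level also differed, with a median over detected cells of 63.3 CPM in series 1 against 1010.8 CPM in series 4. In series 1, 49 of 58 cells had a Sema3c read, but 32 of them had less than 10 CPM. Sema3d was more even, from 18.4% in series 3 and 4 to 35.3% in series 6, and the intervals of all 7 series overlapped. In series 6 all 12 cells with Sema3d had at least 100 CPM.

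The plexins showed smaller gaps, of 12.4 points for Plxna2, 16.3 points for Plxna4 and 14.7 points for Plxnd1. Plxna4 was detected in 9, 10 and 7 cells of series 1 to 3 and in 2 or 3 cells of each of series 4 to 7. Plxnd1 was detected in 0 of 44 cells of series 7, which by the exact interval allows up to 8.04% (3 cells of 44 would be 6.82%). Nrp2 was detected in 1 to 3 cells of every series.

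**Figure D2:**
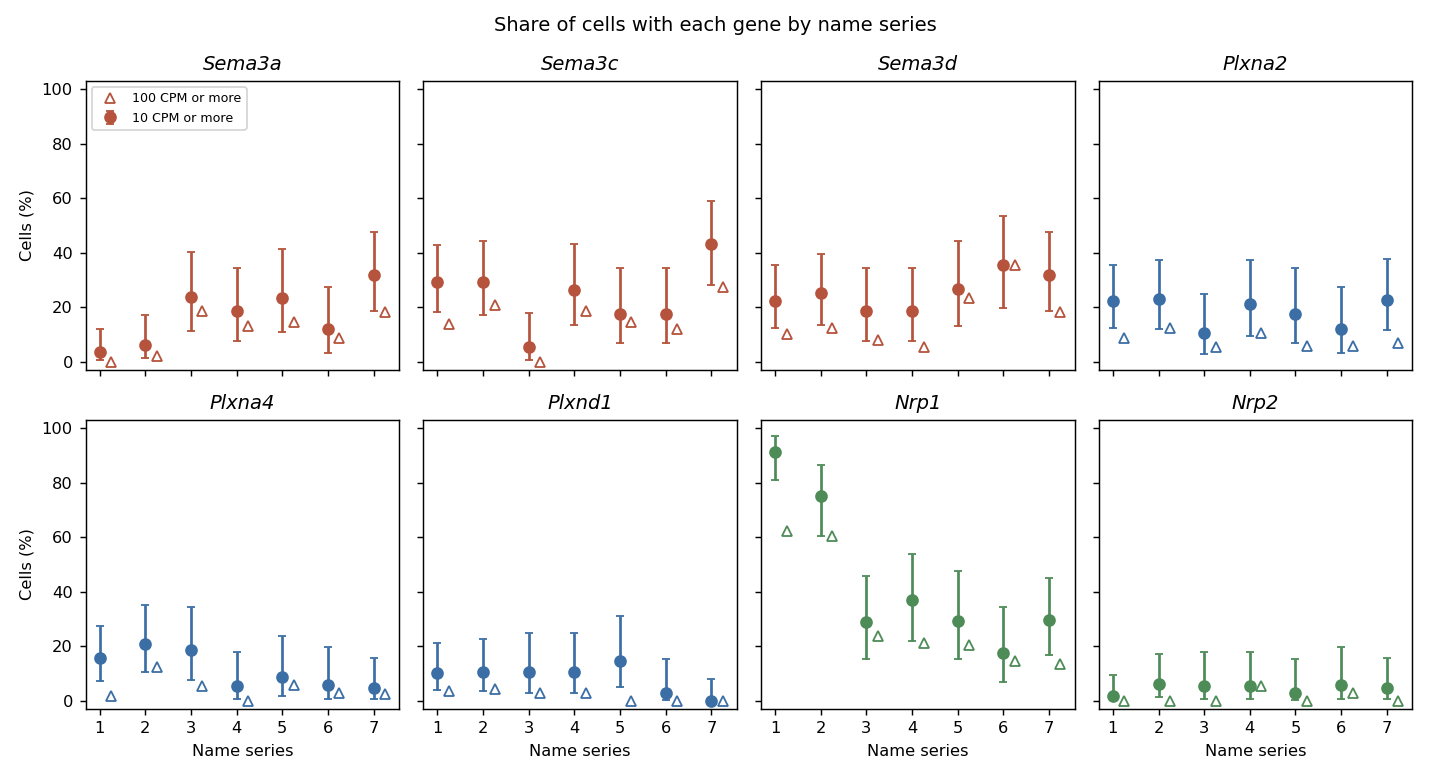
Share of cells with each gene by name series, in percent; filled points with bars are cells at 10 CPM or more with exact 95% intervals, and open triangles are cells at 100 CPM or more. Nrp1 stands at 91.4% and 75% in series 1 and 2 and at 36.8% or less in the others, while Sema3a is lowest in series 1 and 2.

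Ligand and receptor were then read in the same cells. Of all cells, 43 (14.6%) had none of the 8 genes, 110 (37.4%) had 1, 85 had 2, 41 had 3, 11 had 4 and 4 had 5. Any of the 3 semaphorins was detected in 150 cells (51%), any of the 3 plexins in 98 (33.3%) and any neuropilin in 50.3%. The semaphorins were mostly found singly, with Sema3c alone in 47 cells, Sema3d alone in 45, Sema3a alone in 18, exactly 2 of them in 35 and all 3 in 5. Plexins were also mostly single, with 1 of the 3 in 81 cells, 2 in 16 and all 3 in 1.

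A plexin together with a neuropilin, the pair that forms a class 3 receptor, was detected in 53 cells (18%, 13.8% to 22.9%). A neuropilin without one of these plexins was found in 95 cells (32.3%), a plexin without a neuropilin in 45 (15.3%) and neither in 34.4% of cells. The pair was present in 36.2% and 35.4% of cells of series 1 and 2 and in 2.94% to 11.4% of series 3 to 7, and in 13.6% of cells without series 1. With Plxna1 and Plxna3 added to the plexins, 58.5% of cells (52.6% to 64.2%) had a plexin and 94 (32%) had a plexin with a neuropilin.

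**Figure D3:**
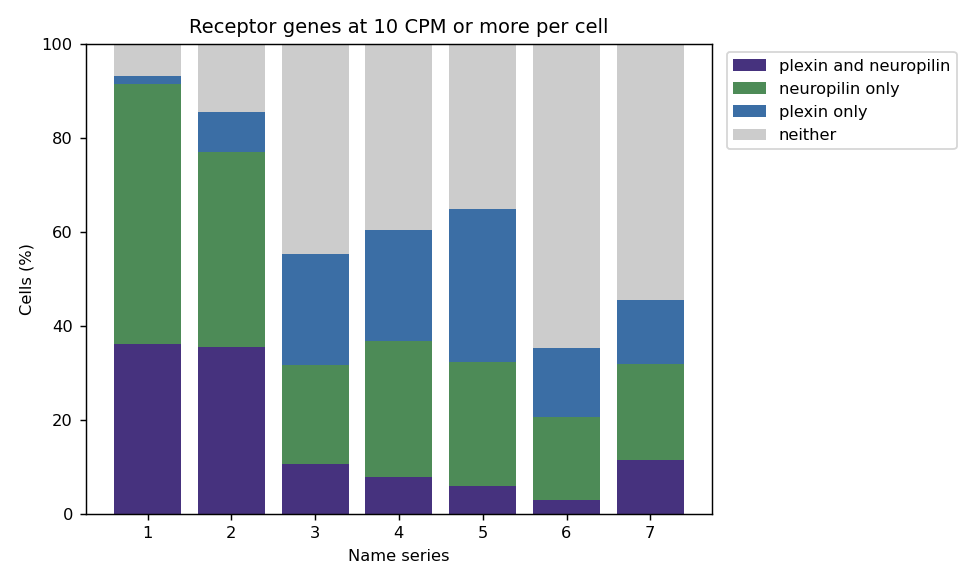
Receptor genes per cell by name series, as stacked shares of cells in percent, with each gene counted at 10 CPM or more among Plxna2, Plxna4, Plxnd1, Nrp1 and Nrp2. Plexin with neuropilin takes 36.2% and 35.4% of cells in series 1 and 2 and at most 11.4% in the others.

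Sema3c was found with a plexin and a neuropilin in 14 cells (4.76%, 2.63% to 7.86%), or in 2.97% of cells without series 1. For Sema3d this was 12 cells (4.08%, 2.13% to 7.02%) and for Sema3a 7 cells (2.38%, 0.963% to 4.84%). A plexin with a neuropilin was detected in 18.9% of the cells with Sema3c and 17.7% of those without it. These shares were 16.2% and 18.6% for Sema3d, and 14.9% and 18.6% for Sema3a. Of the 14 cells with Sema3c and both receptors, 7 were of series 1 and 4 of series 2. With the cells that carried glial markers left out, 10 remained (3.56%). Of the 150 cells with a semaphorin, 92 also had at least 1 of the 5 receptor genes and 58 had none of them. Of all cells, 34.4% had none, a slightly lower share than among these 150. Sema3c without any of these receptors was found in 21 cells (7.14%, 4.48% to 10.7%). As a share of the 74 cells with Sema3c, this was below that of all cells. These comparisons were not adjusted for name series.

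Co-detection was set against the product of the separate shares, computed within name series and then added up over the series. Sema3c and Nrp1 were found together in 42 cells (14.3%), where the product gives 38.7 cells. Nrp1 was detected in 42 of 74 cells with Sema3c (56.8%) and in 45.9% of the 220 cells without it, but within series 1 the shares were 94.1% and 90.2% and within series 2 they were 78.6% and 73.5%. Sema3d and Nrp1 were found together in 36 cells against 34.4, Sema3a and Nrp1 in 22 against 16.5, and Sema3c and Plxna2 in 15 against 15.4. Sema3c and Plxna2 shared 1 cell against 3.81 in series 1, and 14 cells against 11.6 without series 1. Of the 15 pairs of a ligand with a receptor, 5 were above the product (33.3%). Of all 61999680 pairs of genes detected in at least 4% of cells, 69.2% were. The ligand-receptor count moved with the detection level. It was 10 of 15 at 1 read, where 69.2% of all gene pairs were above, and 11 of 15 in the depth-corrected table, where 76.7% were. For all 28 pairs among the 8 genes, 13 were above. None of the 28 products left the 95% interval of its observed share. Over all gene pairs the product was below the interval for 1.33% and above it for 0.0779%. With every other gene of the table as partner, the share of pairs above the product was 61.6% for Sema3a, 68.4% for Sema3c, 56.2% for Sema3d, 67.4% for Plxna4, 58.7% for Plxnd1, 78.1% for Nrp1 and 58.6% for Nrp2.

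Sema3d and Plxna2 came nearest to leaving that interval. This pair was singled out after all 28 had been seen. They were found together in 7 cells (2.38%, 0.963% to 4.84%), where the product gives 14.1 cells (4.78%). Plxna2 was detected in 7 of 74 cells with Sema3d (9.46%) and 49 of 220 cells without it (22.3%), and its share was lower in the cells with Sema3d in all 7 series. Co-detection stayed below the product under all 13 alternatives, but at 1 read the gap was 33 cells against 36.1 and it was 34 against 37.3 in the depth-corrected table, both inside the interval. Without the 13 cells that carried glial markers the product, 14.6 cells against 7, lay outside the interval. Across all genes paired with Plxna2, 47.6% were above their product, and 0.260% had a product above the interval, as did 0.305% of those paired with Sema3d. Any plexin was detected in 15 of 74 cells with Sema3d (20.3%) and 83 of 220 without it (37.7%), lower in 6 of 7 series.

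Of the pairs within a role, Sema3a and Sema3d were found together in 18 cells (6.12%, 3.67% to 9.50%) against 12.1, Sema3a and Sema3c in 16 against 11.9 and Sema3c and Sema3d in 16 against 19.3. Plxna2 and Plxnd1 shared 7 cells against 4.75, and Nrp1 and Nrp2 shared 8 against 5.72. Each of these products lay inside its interval.

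**Figure D4:**
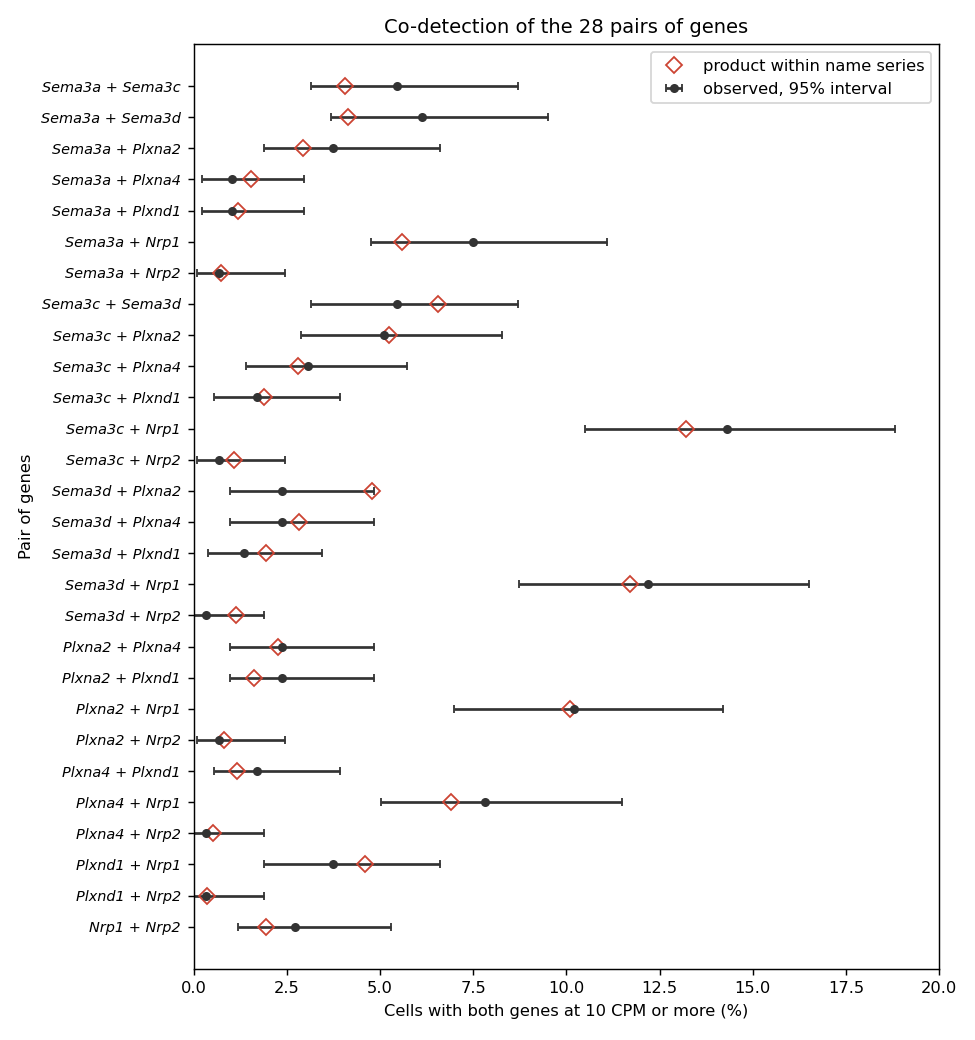
Share of all cells with both genes of a pair at 10 CPM or more, in percent, for all 28 pairs; black points with bars are observed shares with exact 95% intervals and open diamonds are the products within name series. Every diamond lies inside its bar, and that of Sema3d with Plxna2, at 4.78%, is just below its upper end of 4.84%.

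The 13 cells with at least 3 glial markers, 5 of series 1 and 8 of series 2, differed from other cells of those series in some of these genes. All 13 had Fabp7, and 9 each had Sox10, Foxd3 and S100b. Sema3c was detected in 10 of the 13 (76.9%, 46.2% to 95%), with values from 0 to 652.6 CPM and a mean of 169.6 CPM, and in 22.8% of all other cells, with a mean of 110.8 CPM. In series 1 it was detected in 5 of 5 glial-marker cells and 12 of 53 others, and in series 2 in 5 of 8 and 9 of 40. Nrp1 was detected in 12 of the 13, with a median of 381.4 CPM, and Plxna4 in 6. Sema3a and Plxna2 were detected in 0 of the 13, which by the exact interval allows up to 24.7%, and Sema3d was detected in 1.

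Set against the other 93 cells of the same series, Sema3c was higher by 54.4 percentage points in the glial-marker cells, Plxna4 by 31 points, Plxnd1 by 14.8 points and Nrp1 by 12.9 points, while Plxna2 was lower, at 0 against 26.4%. Sema3d, at 7.69% against 27.2%, and Sema3a, at 0 against 6.07%, were also lower. A difference of 20 points either way, a level chosen after these values were seen, was passed upward by 14.2% of all genes and downward by 1.77%. Upward it was passed by 2 of the 8 genes and downward by 1, with Sema3d just short of it. These are 13 cells of 1 sample, and no test was made. In series 2 alone, without the low reads of series 1, the Sema3c shares were the 5 of 8 and 9 of 40 given above.

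**Figure D5:**
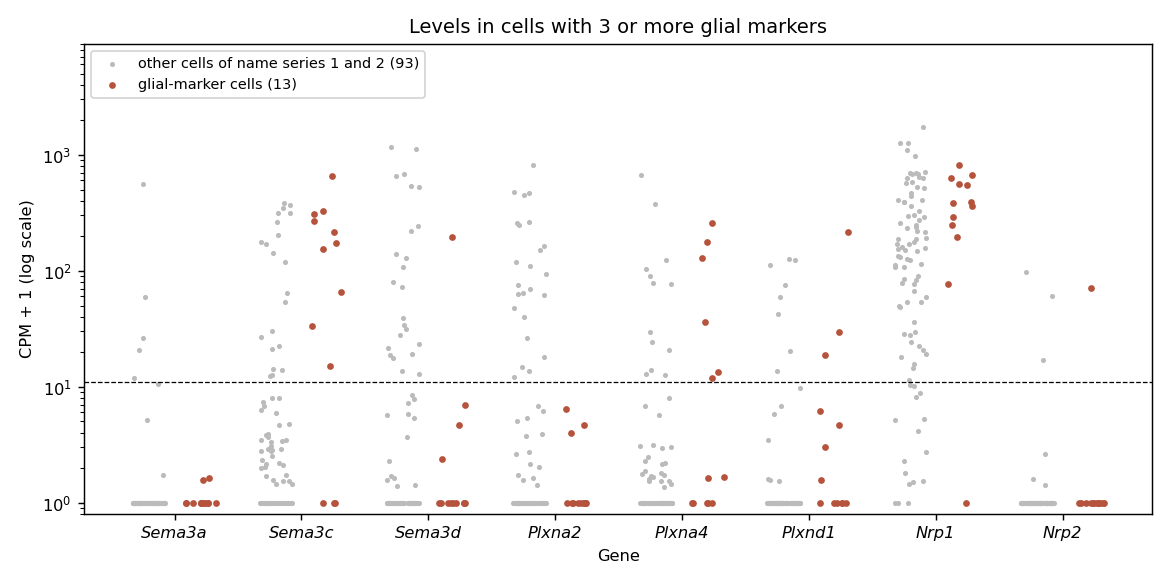
Level of each gene as CPM + 1 on a log axis in the 13 cells with at least 3 glial markers (red) and the other 93 cells of name series 1 and 2 (grey); each point is a cell and the dashed line is 10 CPM. Sema3c lies above the line in 10 of the 13 and Nrp1 in 12, and Sema3a and Plxna2 in 0.

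In cells with at least 3 smooth muscle markers, Sema3c was detected in 29.3% (22.9% to 36.3%), and in 17.9% of the other cells (11.2% to 26.6%). The former are 55 cells, where the Sema3c shares within name series give 50.9. All 58 cells of series 1 carried these markers, so none was among the other cells. Cells with the markers also had a higher median total, of 1338885 reads against 831636.5. The excess over the series shares was larger for Nrp1 and for Plxna2 (44 cells against 38.1), while Sema3d and Plxnd1 lay below theirs. With single lineage genes, Sema3c and Cnn1, a smooth muscle calponin, were found together in 44 cells against 34.7, and Sema3c and Acta2 in 53 against 48.7. Sema3c and Twist1, a mesenchymal transcription factor, shared 32 cells (10.9%, 7.56% to 15.0%) against 43.8 (14.9%). Without series 1 they shared 24 against 35.0, where the product lay above the interval. That was so for 0.0898% of all genes paired with Sema3c in those cells. Without the cells that carried glial markers they shared 30 against 40.5, inside the interval. Sema3d and Sox9 shared 71 cells against 63.2, and Sema3a and Mki67, a gene of dividing cells, 20 against 13.8. Over 80 such pairs with 10 lineage genes, 46 were above the product (57.5%, against 69.2% of all gene pairs), and in all 80 the product lay inside the interval when all cells were used.

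Within name series, Sema3d varied most closely with Tcf21, a transcription factor of cardiac fibroblast and epicardial lineages, and Robo2, a receptor of the Slit guidance cues. The median Spearman correlation of log2(CPM + 1) over the 7 series was 0.33 with Tcf21 (0.20 to 0.45) and 0.33 with Robo2 (0.24 to 0.41), followed by Cdh2 and Dcun1d3 at 0.25 and Bicc1 at 0.23. Cells of a series differ in depth and all belong to 1 sample, so these values describe the cells and have no p. Tcf21 was detected in 50 of 74 cells with Sema3d (67.6%, median 160.5 CPM) and 81 of 220 without it (36.8%, median 1.19 CPM). Robo2 was detected in 53 of 74 (71.6%, median 142.6 CPM) and also 81 of 220 (36.8%, median 1.48 CPM). The share was higher in the cells with Sema3d in each of the 7 series for both genes. The products, 34.2 cells for Tcf21 and 33.7 for Robo2, lay below the intervals of the co-detection shares (12.9% to 21.8% and 13.8% to 22.9%), as was so for 0.386% of all genes paired with Sema3d. Both genes were picked for their correlation with Sema3d over all 8853 genes, so these shares are no independent support for it.

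For Sema3c the 5 leading genes were Abhd13 (0.27), Cryab (0.25), Crim1 (0.25), Sirt3 (0.22) and Zyg11b (0.21). For Nrp1 they were Rfx7 (0.37), Tgfb1 (0.32), Jmy (0.31), Apbb2 (0.28) and Fam173a (0.28). The lowest series value was 0.04 for Rfx7, 0.01 for Tgfb1 and Jmy, and 0.03 for Apbb2, Abhd13, Crim1 and Zyg11b. Each of these correlations was thus near 0 in at least 1 series. It was 0.05 for Cryab, 0.11 for Fam173a and 0.17 for Sirt3. With a name series left out, 0 to 3 of the 5 genes of Sema3c and 1 to 3 of those of Nrp1 stayed among the leading 5. Between the 8 genes themselves, medians lay between -0.13 and 0.16.

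The rest of the pathway gives the setting of these 8 genes. Of the other class 3 semaphorins in the table, Sema3b was detected in 13.3% of cells, Sema3f in 14.3% and Sema3e in 0.340%, so 0 of 3 reached 20% of cells. Among 11 semaphorins of other classes, 2 did, the transmembrane Sema6d (37.8%) and Sema5a (25.9%). Without series 1 Sema5a was at 19.1%, and Sema6a, at 19.7% of all cells, was at 20.8%. Of 6 other plexins, Plxnb2 (47.6%), a receptor for class 4 semaphorins, and Plxna1 (27.9%) did, followed by Plxna3 at 19%. Of 9 co-receptors, Itgb1 (96.6%) and Erbb2 (27.2%) did, and Kdr, the VEGF receptor that pairs with Nrp1 in endothelium, was detected in 2.38%. VEGF ligands of the neuropilins reached 20% of cells for 3 of 5, with Vegfa at 42.2%.

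Intracellular effectors were the most widely detected of these lists, with 17 of 27 in at least 20% of cells and 10 in at least 50% (9 without series 1), against 41.7% of all genes at 20%. The actin severing protein Cfl1 was detected in 98.3% of cells, the collapsin response mediators Dpysl3 in 95.9% and Dpysl2 in 77.2%, the GTPases Rhoa in 85.7% and Rac1 in 84.7%, and the kinase Gsk3b in 82%. Gipc1, which binds the tail of Nrp1, was detected in 41.5%, and Farp2, an exchange factor that acts downstream of Sema3a, in 2.04%. Many of these effectors also serve other signals to the cytoskeleton.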

How the data were processed

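RNA of 294 single cells was sequenced as full-length cDNA from the Fluidigm C1 system, per the labels' protocols. The deposited raw counts are whole reads per gene, 15124 genes by 294 cells. Per the submitters' processing notes, HISAT2 2.1.0, featureCounts, Seurat and the build mm10 were used, with no role or order. The annotation and strand setting are not given in the sources used here. The second deposited table, a score called SCT by the authors, holds 14051 genes and totals of 1110845 to 1216916 per cell. It was used as a normalised, rounded quantity in an alternative only.

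CPM is a gene's share of the reads of its cell times 1000000. No 2 cells held identical counts (0 pairs), and all columns were matched to cells by name. A cell carried a marker list at 3 or more of its markers at 10 CPM. Shares carry exact Clopper-Pearson 95% intervals. The product for a pair is the product of both shares within each name series, summed over series, and was computed for all pairs of genes detected in at least 4% of cells. Covariation is the median over series of Spearman's correlation of log2(CPM + 1), for the members detected in at least 20% of cells, among genes detected in at least 10%. The text names the 8 genes, the 5 genes with the highest median correlation and the same sign in every series, 10 lineage genes and fixed pathway and marker lists. The genes and lists were chosen with earlier results of these data known. Tcf21 and Robo2 were singled out, and the 20-point level for glial-marker cells set, after their values were seen, as were the alternatives that leave out glial-marker cells or series 1 for lineage genes. Blood markers, Sema3g and the other listed genes without a row were not analysed here. A gene of the marker lists is not reported here. Exons of Nrp1 overlap Mir1903 over 80 bp and those of Plxna4 overlap the antisense Plxna4os3 over 110 bp. Doublets were not called, since capture sites were imaged per the labels. The scripts were tested on simulated data. Python 3.11.15, NumPy 2.4.6, pandas 2.3.3 and SciPy 1.17.1 were used.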

Additional observations from a re-analysis of the deposited data

How the results depend on the processing

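The detection level moved shares most, by its own construction. At 1 read, 10 CPM and 100 CPM, Sema3a was in 20.7%, 16% and 9.86% of cells, Sema3c in 42.2%, 25.2% and 15.6%, Sema3d in 36.1%, 25.2% and 15.3%, Plxna2 in 32.7%, 19% and 8.16%, Plxna4 in 22.8%, 11.9% and 4.42%, Plxnd1 in 15.0%, 8.50% and 2.04%, Nrp1 in 59.9%, 48.6% and 34%, and Nrp2 in 9.18%, 4.42% and 1.02%. In the depth-corrected table at 1 or more these shares were 20.7%, 42.9%, 36.7%, 33.3%, 22.8%, 15.6%, 60.9% and 10.2%. Plexin with neuropilin was in 38.1% of cells at 1 read, 7.48% at 100 CPM, 38.8% in the depth-corrected table and 13.6% to 20% with a series left out, lowest without series 1. Sema3c with both receptors was in 22.1%, 1.02% and 22.8%, and 2.97% to 5.47% with a series left out. Nrp1 was in 38.1% to 52.7% with a series left out. Ligand-receptor pairs above the product numbered 10 at 1 read, 11 in the depth-corrected table and 5 to 7 with a series left out. Of 13 alternatives for each pair, Sema3d with Nrp2 left the interval in the depth-corrected table, with 18 cells against 10.7. At 10 CPM this pair lay on the other side of its product, with 1 cell against 3.32, inside the interval. Sema3d with Plxna2 left its interval without the glial-marker cells, as given above. Of the 5 leading genes, Tcf21 and Robo2 stayed with Sema3d under all 11 alternatives. Of all 5, Sema3d kept 2 with all cells as 1 stratum, 3 with the total regressed out and 2 to 3 with a series left out. Sema3c kept 0, 2 and 0 to 3, and 3 in the depth-corrected table, and Nrp1 kept 0, 3 and 1 to 3, so the leading genes of Sema3c and Nrp1 depend on these settings. The cause of each change other than the detection level was not tested. No paired analysis was possible because all cells form 1 group and no result comes from a test.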
